A study of Mus musculus with 24 samples.

Results

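The genes described here are those of the mouse major histocompatibility complex (MHC, H2 in the mouse) and of the machinery that loads it with peptides. They were taken by name: every probe, other than control probes, whose gene name starts with H2- or is B2m, Tap1, Tap2, Tapbp, Ciita, Cd74, Psmb8, Psmb9, Psmb10, Nlrc5 or Ctss. This gave 68 probes of 39429 on the array, for 52 gene names of 30175. After a filter on low signal, with 1 probe kept for each gene, 39 of the 52 entered the tests among 21158 genes. The filter removed the other 13 names, among them H2-Eb2, H2-DMb2, H2-T18 and most of the H2-M genes, so counts below run over the 39 tested genes. The names include H2-Ke2 and H2-Ke6, which lie in the H2-K region but encode no MHC chain.

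The samples were 24 mammary tumors of female BALB/c mice, all of which had received the carcinogen 7,12-dimethylbenz[a]anthracene (DMBA), and each tumor was hybridised on its own array against a common reference, a pool of RNA from 11 mouse cell lines. Mice ate a low-fat diet (LFD) or a high-fat diet (HFD) throughout, or were switched after peripuberty from LFD to HFD (LFD-HFD) or from HFD to LFD (HFD-LFD), and the labels also call each tumor early or late. There were 5 LFD late, 6 HFD late, 4 LFD-HFD late, 3 HFD-LFD late, 3 HFD early and 3 HFD-LFD early tumors, so that early tumors came only from mice that ate HFD in peripuberty. No DMBA-free tissue was among the arrays. A tumor RNA is a mixture of cancer cells with stroma and immune cells, and fewer cells of a type and less RNA per cell cannot be told apart in any value below. Nothing in the labels ties tumors to mice, so p-values measure the spread between tumors only.

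All values are log2 ratios of tumor over reference unless stated otherwise, and a difference of 1 is a doubling. The labels put the tumor in Cy5 and the reference in Cy3, whereas the study's methods put the reference in Cy5. The signals settled this in favor of the labels. In the tumor channel the median probe had a standard deviation (SD) of 0.465 across the arrays, against 0.189 in the reference channel, and 96.4% of probes varied more in Cy5. The Y-linked Ddx3y had a median signal of 594 in Cy3 and -1.92 in Cy5, where female tumors have none. The signs below therefore oppose those that the stated dyes would give. The scanner called between 66.1% and 89.2% of probes in the tumor channel well above background, and rows of spots with dimmed Cy5 on 7 arrays (slides 6 and 7) were set missing, which touched 22 of the 39 genes. The array of HFD late replicate 4 correlated least with the others, with a median r of 0.621.

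MHC class I molecules are heavy chains paired with beta-2-microglobulin (B2m), and they show cytotoxic T cells peptides cut from proteins inside the cell. Proteasomes cut the peptides, with Psmb8, Psmb9 and Psmb10 replacing the standard catalytic subunits where interferon acts, and the Tap1-Tap2 transporter carries them to tapasin (Tapbp) and the waiting heavy chain. Class II molecules are pairs of an alpha and a beta chain (H2-Aa with H2-Ab1, H2-Ea with H2-Eb1) made mainly by macrophages, dendritic cells and B cells. They are filled after the invariant chain Cd74 is cut by cathepsins such as Ctss, under the control of H2-DM and H2-DO. Nlrc5 and Ciita are the coactivators that switch on class I and class II promoters. In tumors, low class I presentation is known as a route of escape from T cells.

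Factors that work with Nlrc5 and Ciita bind these promoters at the X and Y boxes. Promoter sequences of some members are shown with the X2 box core (TGACG) and the Y box (CCAAT) in capitals, on either strand. B2m and H2-M3 fell in early tumors, H2-D1 and H2-Aa did not pass the test, and the stretch between the divergent start sites of Psmb9 and Tap1 belongs to a gene that fell and to a gene that did not. Psmb8 and Psmb10 both fell and hold neither motif in the window shown. For Tap2 and H2-T24, which also fell, no promoter window was given. Each promoter is the 250 bases before the start site, 5′ to 3′ on the gene's strand, from RefSeq on GRCm38.p6. That build is a reference assembly. The BALB/c sequence of these tumors was not read and may differ.
B2m: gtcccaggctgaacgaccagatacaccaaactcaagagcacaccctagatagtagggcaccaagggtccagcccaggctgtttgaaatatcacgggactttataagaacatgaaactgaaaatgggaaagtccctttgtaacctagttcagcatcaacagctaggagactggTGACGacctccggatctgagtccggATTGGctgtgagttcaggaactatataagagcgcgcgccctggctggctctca
H2-D1: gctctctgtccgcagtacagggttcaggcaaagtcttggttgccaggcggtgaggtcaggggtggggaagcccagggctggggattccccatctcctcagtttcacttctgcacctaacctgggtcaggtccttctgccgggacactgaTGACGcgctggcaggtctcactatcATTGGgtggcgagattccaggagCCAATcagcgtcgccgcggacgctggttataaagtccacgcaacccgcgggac
H2-M3: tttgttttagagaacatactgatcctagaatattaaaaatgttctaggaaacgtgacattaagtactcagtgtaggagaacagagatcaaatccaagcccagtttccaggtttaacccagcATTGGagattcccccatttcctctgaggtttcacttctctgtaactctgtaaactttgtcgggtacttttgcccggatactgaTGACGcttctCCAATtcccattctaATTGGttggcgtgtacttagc
H2-Aa: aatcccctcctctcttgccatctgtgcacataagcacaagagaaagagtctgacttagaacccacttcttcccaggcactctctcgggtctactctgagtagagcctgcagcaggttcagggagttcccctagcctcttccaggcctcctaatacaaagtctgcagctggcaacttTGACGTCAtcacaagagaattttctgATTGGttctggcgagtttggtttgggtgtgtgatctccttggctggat
Psmb9-Tap1: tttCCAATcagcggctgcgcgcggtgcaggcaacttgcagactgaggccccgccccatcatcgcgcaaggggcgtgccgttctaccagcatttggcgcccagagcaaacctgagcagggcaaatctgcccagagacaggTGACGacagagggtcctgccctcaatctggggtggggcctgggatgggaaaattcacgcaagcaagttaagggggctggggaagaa
Psmb8: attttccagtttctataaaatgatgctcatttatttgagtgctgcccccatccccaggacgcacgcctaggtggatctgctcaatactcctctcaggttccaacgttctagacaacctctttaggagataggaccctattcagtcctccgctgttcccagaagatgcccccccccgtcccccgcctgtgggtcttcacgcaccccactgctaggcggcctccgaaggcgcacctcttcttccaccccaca
Psmb10: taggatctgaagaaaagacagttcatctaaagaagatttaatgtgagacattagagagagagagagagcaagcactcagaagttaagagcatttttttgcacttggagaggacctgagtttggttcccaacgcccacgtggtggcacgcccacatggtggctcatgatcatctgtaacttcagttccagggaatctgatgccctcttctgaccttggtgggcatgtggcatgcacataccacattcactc
The Psmb9-Tap1 stretch, 225 bases on the plus strand, is chr17:34187331-34187555 of the same build. In H2-Aa the capitals run together because TGACG on a strand overlaps its own reverse complement.

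RefSeq windows from 250 bases before to 50 after the start site were given for 36 of the 52 member genes and for 32851 genes in all. CCAAT stood in 30 of the 36 (83.3%), against 37.4% of all windows. TGACG stood in 13 (36.1%), against 20.8%. TGACG followed by ATTGG that starts 25 bases after it was found in 4 of the 36 (11.1%), B2m, H2-D1, H2-K1 and H2-M3, and in 31 of all 32851 (0.0944%). That spacing was chosen after the windows were read. The letters TTCNNNGAA, of the gamma interferon activation site, were in 4 member windows (11.1%, against 8.3%), H2-DMb2, H2-M11, H2-M3 and Psmb8. Those of the interferon-stimulated response element were in 3 (8.33%, against 3.44%), B2m, Ctss and H2-T23. These matches describe letters of the reference assembly only.

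The study compared early with late tumors to learn what marks short latency. Early tumors had lower levels of the 3 immunoproteasome subunits, of the transporter subunit Tap2, of the class I light chain B2m and of the nonclassical heavy chains H2-T24 and H2-M3. These 7 of 39 genes (17.9%) passed the test (limma, Benjamini-Hochberg adjusted p under 0.05 over all 21158 genes), beside 17.9% of all genes called. All 7 were lower in early tumors. No member was called higher, beside 10.8% of all genes called lower and 7.12% called higher. The classical heavy chains H2-K1 and H2-D1 and every class II gene stayed short of the threshold. Below 0 lay 35 of 39 member differences (89.7%, against 56.7% of all genes), and the median was -0.46, against -0.055 for all genes. Without adjustment 16 members passed, all lower, beside 33.7% of all genes in either direction and 20.3% lower. No member's early and late values separated wholly, beside 0.52% of all genes with early values lower and 0.317% with early values higher. Every early value lay under the late median for 8 members (20.5%), beside 20.7% of all genes.

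**Figure D1:**
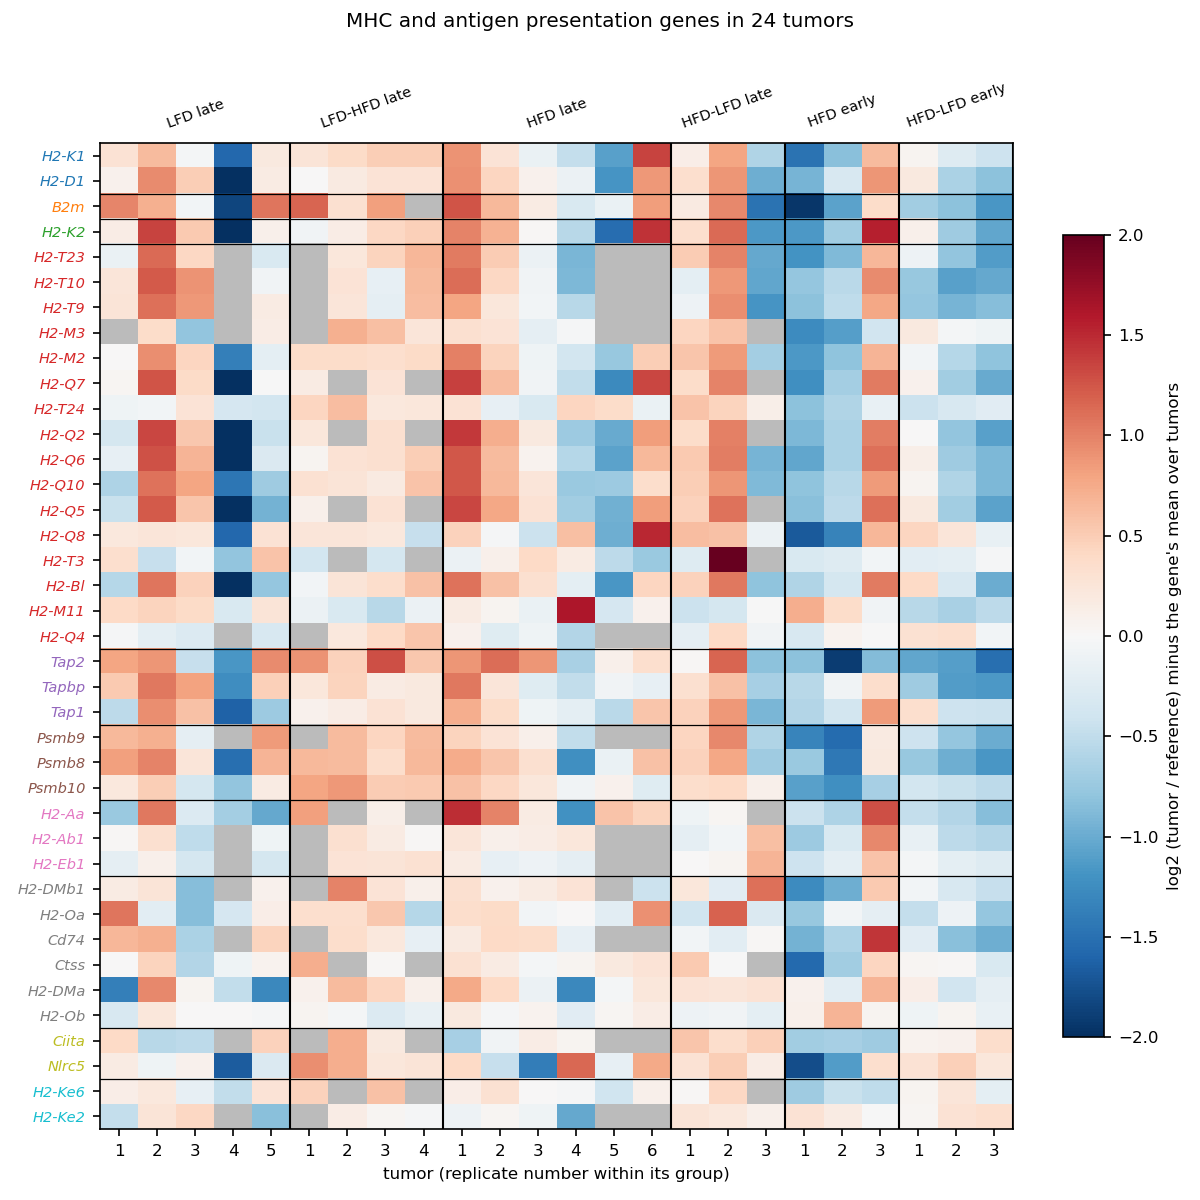
Levels of the 39 tested genes in the 24 tumors, as log2 tumor over reference minus the gene's mean, with genes in rows colored by role and tumors in columns by group. Gray cells are missing values. Most class I rows are blue in the early tumors except HFD early replicate 3, and so are those of LFD late replicate 4 among the late tumors. Other late tumors hold low class I values too. In HFD-LFD late replicate 3, B2m was at 0.88 before its mean of 2.35 was taken off.

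Scaling and a few tumors moved this count. With each array centred on its median ratio in place of loess, the median of all genes went from -0.055 to 0.216, and 3 members were called lower (Tap2, Psmb10 and H2-T24) and 2 higher (H2-Ke2 and H2-Q4), in place of 7 and 0. Relative to all genes, the member median was then -0.345. Without HFD early replicate 2 there were 4 calls, Tap2, Psmb10, Psmb9 and H2-T24. Without HFD early replicate 3 there were 14, with Cd74, Ctss, H2-Ab1, H2-DMb1, H2-T10, H2-T23, H2-T9 and Tapbp added and H2-M3 lost. Without LFD late replicate 4, or without HFD late replicate 4, there were 9. Counts from these and later refits stand without the share of all genes called, unless that share is given. They are not read as particular to the members.

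Slides were close to groups. All HFD early tumors shared slide 2 and all HFD-LFD early tumors slide 4, and only slide 4 also held a late tumor, LFD-HFD late replicate 3. With slide as a random block 4 members were called, Tap2, Psmb10, Psmb9 and H2-T24. With slide as a fixed block, which rests on slide 4, none was called by limma (2 without adjustment) and 0.359% of all genes were, while the member median was -0.683 and Tap2 differed by -2.50 ± 0.78 (SE). Scan sessions could be separated better. Within session 1, with 3 HFD early and 8 late tumors, 3 members were called lower, Tap2, Psmb10 and H2-Ke6, beside 7.09% of all genes called in either direction. Within session 2, with 3 HFD-LFD early and 3 late tumors, 11 were called lower, beside 11.6% of all genes in either direction, and all 7 of the main comparison were among them.

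All 3 immunoproteasome subunits fell in early tumors. Psmb10 (probe at chr8:108459677-108459736 of mm9) ran from -0.97 over a median of -0.35 to -0.13 in the 6 early tumors. In the 18 late tumors it ran from -0.54 over 0.54 to 1.12. Only LFD late replicate 4 lay below the highest early tumor, so that 17 of 18 late values stood above all early ones. The difference was -0.96 ± 0.18 (SE), which put early tumors at 51.4% of the late level (adjusted p = 0.0017).

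Psmb9 (chr17:34319174-34319233 of mm9) read 1.20, 0.99 and 2.70 in the HFD early tumors and 2.11, 1.76 and 1.54 in the HFD-LFD early tumors. The 14 late tumors with a value ran from 1.92 over 2.96 to 3.49. HFD early replicate 3 was the high early tumor, and 10 of the 14 late values lay above it. Psmb9 fell by 1.16 on the log2 scale (SE 0.24, adjusted p = 0.00402). A dim second Psmb9 probe, with a median tumor signal of 33.4 units, did not pass the filter. With a filter on the tumor channel alone, that probe gave -0.17 (limma, adjusted p = 0.328). For Psmb8 (chr17:34337771-34337830 of mm9) early tumors ran from 1.05 over 1.61 to 2.68 and late tumors from 0.97 over 3.05 to 3.47. LFD late replicate 4 held the lowest value of all 24, and 14 of 18 late values were above every early one. Psmb8 fell by 1.08 (SE 0.31, adjusted p = 0.0178). The standard catalytic subunits, which the immunoproteasome subunits replace, gave differences of -0.24 for Psmb5, -0.23 for Psmb6 and 0.30 for Psmb7, none called, and whether they differed from the immunoproteasome subunits was not tested.

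Among the loading proteins Tap2 gave the largest difference of the 39 members tested. Tap2 (chr17:34353116-34353175 of mm9) read 1.35, 0.26 and 1.29 in the HFD early tumors and 1.13, 1.06 and 0.65 in the HFD-LFD early tumors. Late tumors ran from 0.99 over 2.83 to 3.44. HFD-LFD late replicate 3, at 1.34, and LFD late replicate 4, at 0.99, were the late tumors within the early range, and the other 16 lay above it. Early tumors had 32.8% of the late level, a difference of -1.61 ± 0.31 (SE, adjusted p = 0.00163).

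Tap1, the partner of Tap2 in the transporter, was not called, and whether its difference differed from that of Tap2 was not tested. It ran from 1.11 over 1.31 to 2.56 in early tumors and from 0.09 over 1.87 to 2.63 in late ones, which overlapped almost wholly. The difference was -0.14 ± 0.30 (SE, adjusted p = 0.778), and it was 0.19 with median centring. Tapbp, the bridge between transporter and heavy chain, ran from -0.19 over 0.33 to 1.31 in early tumors and from -0.29 over 1.19 to 2.02 in late tumors. Its difference of -0.72 ± 0.27 (SE) just missed the threshold (adjusted p = 0.0615). All 3 HFD-LFD early tumors were at or under 0.25 for Tapbp, whereas the HFD early tumors read 0.40, 0.88 and 1.31.

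**Figure D2:**
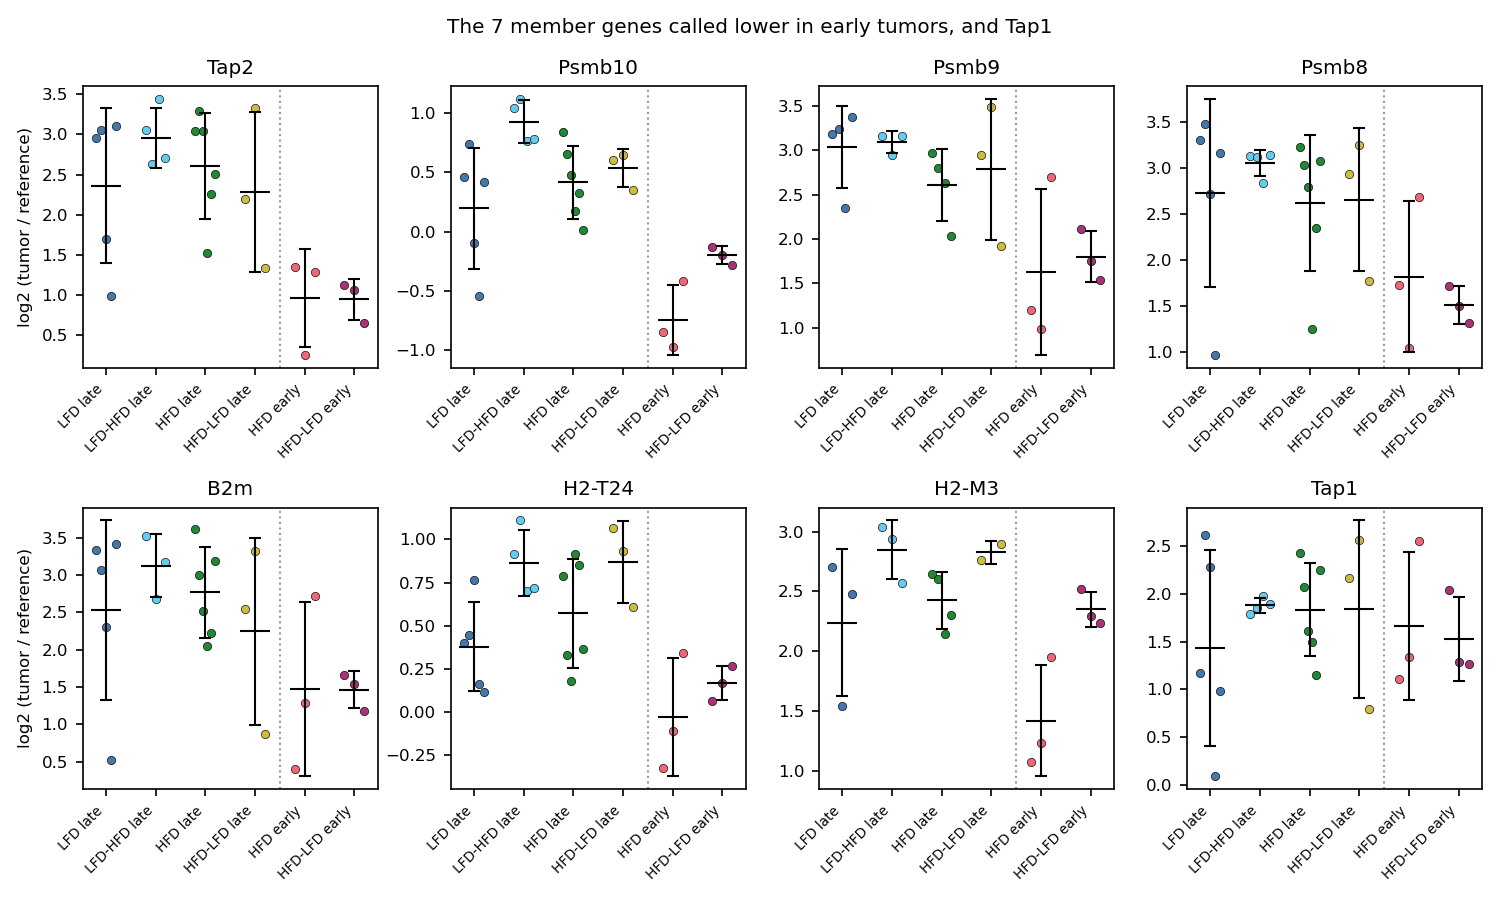
Log2 tumor over reference in each tumor for the 7 genes called lower in early tumors and for Tap1, with the mean and SD of each group in black and early groups right of the dotted line. For Psmb10, 17 of 18 late tumors stand above every early tumor, whereas Tap1 overlaps throughout.

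B2m, the light chain that every class I molecule needs, was bright, with a median tumor signal of 124680 units and no saturated spot. It read 0.41, 1.28 and 2.72 in HFD early and 1.66, 1.54 and 1.18 in HFD-LFD early tumors. The 17 late values ran from 0.52 over 3.01 to 3.62. LFD late replicate 4, at 0.52, and HFD-LFD late replicate 3, at 0.88, were the low late tumors, and all 6 early values lay under the late median. B2m fell by 1.20 (SE 0.39), to 43.4% of the late level (adjusted p = 0.0335).

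The classical heavy chains were not called. Their SD over the tumors was 0.734 for H2-K1 and 0.765 for H2-D1, against 0.994 for B2m, and whether their onset differences differed from that of B2m was not tested. H2-K1 ran from 0.16 over 1.31 to 2.28 in early tumors and from 0.07 over 1.90 to 2.99 in late tumors, a difference of -0.51 ± 0.32 (SE, adjusted p = 0.271). H2-D1 ran from 0.91 over 1.35 to 2.72 in early and from -0.22 over 2.06 to 2.77 in late tumors, a difference of -0.36 ± 0.34 (SE, adjusted p = 0.482) that was 0.017 with median centring. LFD late replicate 4 was the lowest tumor for both genes. HFD early replicate 3 was the highest early tumor for both. H2-L had no probe.

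Of the 26 nonclassical (class Ib) heavy chain genes, 16 were tested, and 2 fell. H2-T24 ran from -0.33 over 0.12 to 0.34 in early tumors and from 0.12 over 0.71 to 1.11 in late tumors. Of the 18 late values, 14 lay above the highest early value. The difference was -0.56 ± 0.14 (SE, adjusted p = 0.00977), and the second H2-T24 probe gave -0.39 (adjusted p = 0.0374). H2-M3, which presents formylated peptides, ran from 1.08 over 2.09 to 2.52 in early tumors and from 1.54 over 2.62 to 3.04 in the 12 late tumors with a value. The HFD early tumors, at 1.08, 1.24 and 1.95, lay toward the low end, where an LFD late tumor stood at 1.54. The HFD-LFD early tumors, from 2.24 to 2.52, lay among the late ones but under the late median. The difference of -0.67 ± 0.23 (SE) passed narrowly (adjusted p = 0.049), and it did so in 9 of the 24 fits that each left out a tumor.

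H2-T23, the Qa-1 molecule read by NK cell receptors, ran from 1.37 over 1.73 to 3.24 in early tumors and from 1.54 over 3.00 to 3.70 in the 14 late tumors measured. Its difference was -0.81 ± 0.32 (SE, adjusted p = 0.0772), and 0.42 where the dimmed rows were kept. H2-Q7, a Qa-2 molecule, gave -0.58 ± 0.44 (SE, adjusted p = 0.374). The other tested class Ib genes lay between -0.77 for H2-T10 and 0.078 for H2-Q4. H2-Q10 was tested through a probe that gave -0.43 (adjusted p = 0.379), while its dim second probe, with a median tumor signal of 50.8 units, gave -0.98 (adjusted p = 0.00266), so that the pair disagreed on the call.

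Several class I probes share sequence, and values of near-identical genes may hold signal of each other. The second H2-K1 probe and the H2-T23 probe have this stretch in common.
shared by H2-K1 and H2-T23: tggagctgtggtggcttttgtgatgaaga
A further pair, the second H2-K2 probe and the H2-Q7 probe, agree at 49 of 57 bases and share the next stretch.
shared by H2-K2 and H2-Q7: tctcctgtgacatccagagccctcagtt
None of the 7 called genes was named by a probe in these pairs. The Ciita probe shares 25 or more bases with a probe named Odz1.

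**Figure D3:**
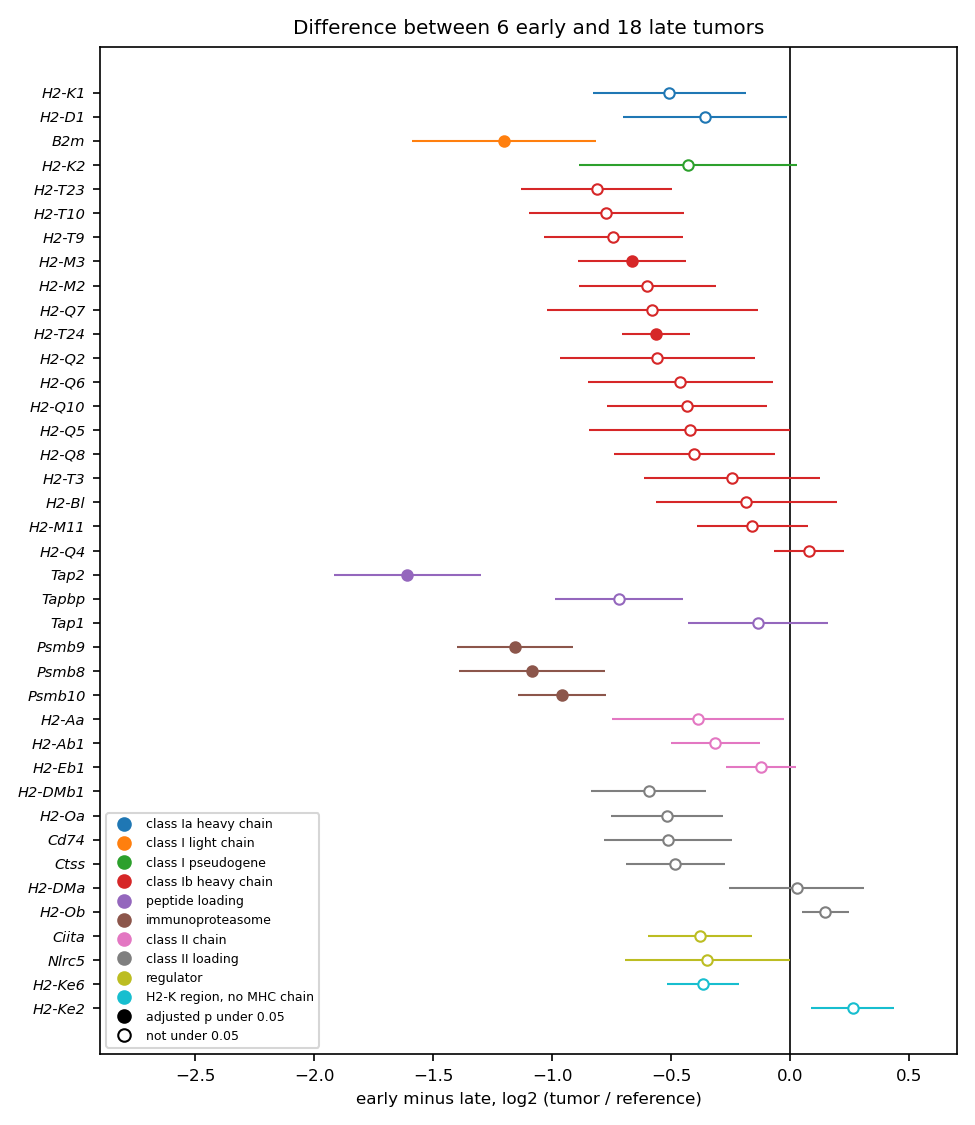
Difference between the 6 early and 18 late tumors for each of the 39 genes, in log2 units with its standard error, colored by role and filled where the adjusted p is under 0.05. The filled points are Tap2, B2m, the 3 immunoproteasome subunits, H2-M3 and H2-T24, all left of 0.

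No class II gene was called between early and late tumors by limma, though Ctss, H2-DMb1 and H2-Oa passed without adjustment. Of 5 class II chain genes 3 were tested, and 6 of 7 loading genes. H2-Aa ran from 0.40 over 0.73 to 2.55 in early and from 0.05 over 1.37 to 2.73 in late tumors, a difference of -0.39 ± 0.36 (SE, adjusted p = 0.471). H2-Ab1 differed by -0.32 ± 0.19 (SE, adjusted p = 0.242) and H2-Eb1 by -0.13 ± 0.15 (SE, adjusted p = 0.576), and both were above 0 with median centring, at 0.14 and 0.33. The gene named H2-Ea-ps after the null allele of C57BL/6 mice was outside the tests because the reference lacked signal, but its tumor signal stood well above background on all 20 arrays with a value.

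For the invariant chain Cd74, the early tumors read 2.06, 2.38 and 4.43 on HFD and 2.77, 2.16 and 2.02 on HFD-LFD. The 14 late tumors ran from 2.36 over 3.20 to 3.70. HFD early replicate 3 had the highest Cd74 of all tumors measured, and the other 5 early tumors were under the late median. The difference was -0.51 ± 0.27 (SE, adjusted p = 0.185), and Cd74 was called lower without that tumor (adjusted p = 0.0063). Ctss, the cathepsin that trims Cd74, differed by -0.48 ± 0.21 (SE, adjusted p = 0.106). H2-DMb1 and H2-DMa, partners in the peptide editor H2-DM, gave -0.60 ± 0.24 (SE, adjusted p = 0.0887) and 0.026 ± 0.28 (SE, adjusted p = 0.959), and the sign of H2-DMa turned in several settings. H2-Oa and H2-Ob, partners in its inhibitor H2-DO, gave -0.52 ± 0.24 (SE, adjusted p = 0.123) and 0.15 ± 0.10 (SE, adjusted p = 0.306), and H2-Ob was at -0.059 with median centring. H2-DMb2 did not pass the filter.

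The coactivators were not called. Nlrc5 read 1.64, 2.30 and 3.75 in HFD early tumors and 3.70, 3.90 and 3.64 in HFD-LFD early tumors. Late tumors ran from 1.76 over 3.61 to 4.56. The low values included HFD early replicates 1 and 2, LFD late replicate 4 and an HFD late tumor at 2.03. The HFD-LFD early tumors all lay above the late median. The overall difference was -0.35 ± 0.35 (SE, adjusted p = 0.503), and it was 0.24 for the HFD-LFD early tumors alone. Ciita read -1.06, -1.03 and -1.08 in HFD early tumors and -0.29, -0.28 and -0.01 in HFD-LFD early tumors, beside -1.02 to 0.36 in 13 late tumors. The HFD early tumors thus stood at the low end for Ciita, and the difference over all early tumors was -0.38 ± 0.22 (SE, adjusted p = 0.23).

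Onset was next compared within each diet that had early tumors, in a fit of all 6 group means. Within HFD, 3 early against 6 late tumors, 5 of 39 members were called, all lower, beside 13.8% of all genes called and 7.73% called lower. Without adjustment 9 passed, beside 30.3% of all genes. Psmb10 read -0.85, -0.97 and -0.41 in the early tumors and from 0.01 over 0.40 to 0.84 in the late ones, and fell by 1.16 (SE 0.22, adjusted p = 0.00334). H2-M3 fell to 49.9% of its late level, with 4 late values (adjusted p = 0.0231). Tap2 read 1.35, 0.26 and 1.29 against late values from 1.52 to 3.29, and fell by 1.65 (SE 0.48, adjusted p = 0.0279). H2-T24 fell by 0.60 (SE 0.19, adjusted p = 0.0362) and H2-Ke6, a steroid dehydrogenase gene of the H2-K region, by 0.58 (SE 0.17, adjusted p = 0.0368). B2m, at -1.30 ± 0.60 (SE), had an adjusted p of 0.151. Measured early values lay under all late ones for 5 members (12.8%), Ciita, H2-Ke6, H2-M3, Psmb10 and Tap2, beside 11.5% of all genes.

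Psmb10 was the call that recurred in these fits within HFD. It stood alone without HFD early replicate 1, without HFD early replicate 2 and with slide as a random block. Without HFD late replicate 1, 2 or 3, between 2 and 3 members were called. Within HFD the early tumors were all on slide 2 and the late ones on slides 3 and 6, so slide and onset cannot be told apart there.

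Within HFD-LFD, 3 early against 3 late tumors, no member was called by limma, beside 0.937% of all genes. Without adjustment 6 passed, all lower, beside 16.1% of all genes in either direction and 8.59% lower. They were H2-T24, H2-T3, Psmb10, Psmb9, Tap2 and Tapbp. H2-T3 rested on 2 late values, -1.66 and 1.72, and its tumor signal was well above background on 5 of 21 arrays. Psmb10 read -0.13, -0.20 and -0.28 in the early and 0.60, 0.65 and 0.35 in the late tumors, a difference of -0.73 ± 0.26 (SE, adjusted p = 0.161). Tap2 read 1.13, 1.06 and 0.65 against 2.19, 3.33 and 1.34, a difference of -1.34 ± 0.55 (SE, adjusted p = 0.234). Measured early values were under all late ones for both genes, as for 14 of 39 members (35.9%), beside 19.6% of all genes. Of the 14, H2-Aa, H2-M3, H2-Q2, H2-Q5 and H2-Q7 had only 2 late values here. H2-Q6, with all 3 late values, overlapped, from 1.23 in early and from 1.20 in late tumors.

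The changes of both diets were compared with each other directly. No member differed (0 of 39 by limma, with none under an unadjusted p of 0.05 and a smallest p of 0.0755, beside 8.39% of all genes unadjusted). For Tap2 the difference was -1.65 within HFD and -1.34 within HFD-LFD. For Psmb9 it was -0.98 in both. Nlrc5, at -0.92 ± 0.73 (SE) between the diets, and Tapbp, at 0.93 ± 0.60 (SE), had wide errors, and equal change in both diets is not shown.

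**Figure D4:**
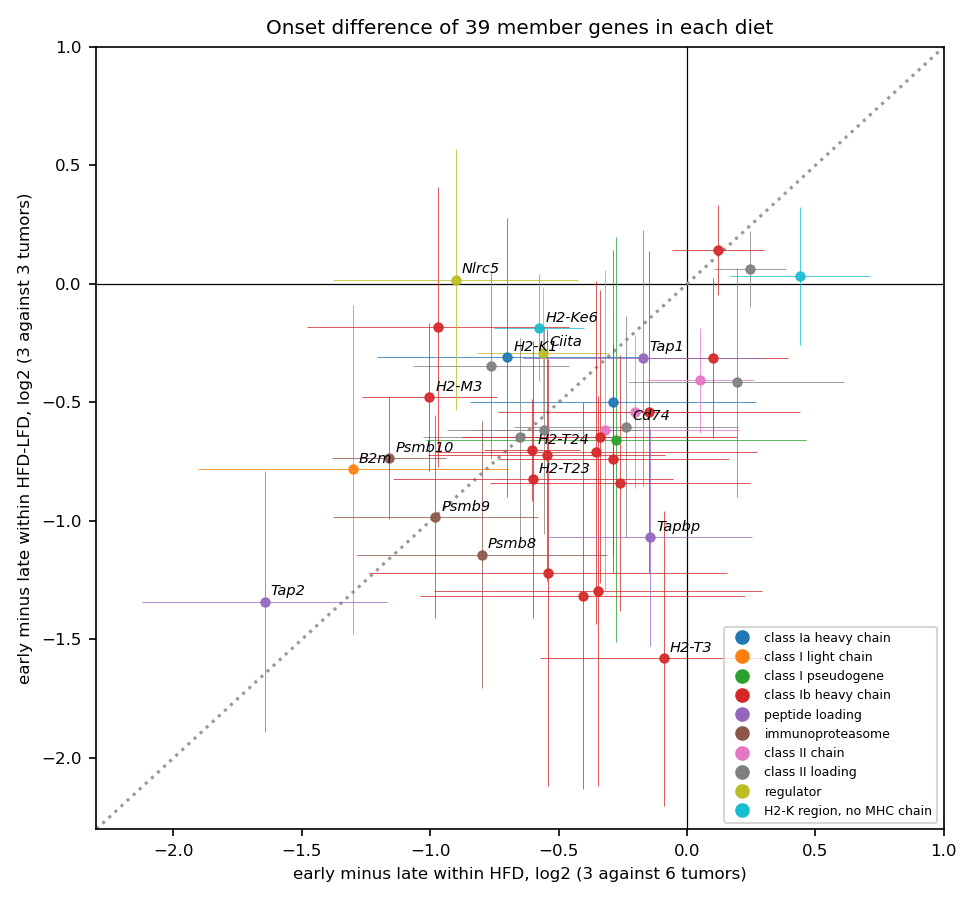
Early minus late difference of the 39 genes within HFD (horizontal axis) and within HFD-LFD (vertical axis), in log2 units with standard errors, with equal change on the dotted line. Tap2, Psmb10, Psmb9, Psmb8 and B2m lie in the lower left, and no gene's difference between the diets passed the test.

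HFD was compared with LFD because diet was the treatment. The HFD tumors included 3 early ones, while all LFD tumors were late, so diet and onset were mixed here. No member was called between the 9 HFD and 5 LFD tumors, as was no gene of 21157, and no member passed an unadjusted p of 0.05, beside 5.23% of all genes. Psmb9 came closest, at -0.85 ± 0.41 (SE, adjusted p = 0.913 from limma). Between late HFD and late LFD tumors alone Psmb9 differed by -0.43. H2-Aa differed by 0.63 ± 0.45 (SE) and H2-K1 by 0.0066 ± 0.48 (SE). The member median was 0.0066.

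Among tumors labeled late, whose latencies the labels do not give, no member differed across the 4 diets (moderated F of limma), beside 2.97% of all genes called. Without adjustment 4 members passed, H2-Q4, H2-T24, H2-T3 and Psmb10, beside 20.9% of all genes. Psmb10 read 1.04, 1.12, 0.76 and 0.78 in LFD-HFD late tumors, beside -0.54 to 0.74 in LFD late tumors. With median centring 3 were called, H2-Eb1, H2-Q4 and Psmb10, with array weights 2, H2-DMa and H2-T24, and with scan session as a block 1, Psmb10.

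Over the tumors, members had a median SD of 0.707, against 0.373 for all genes, and 35 of 39 lay above that median. Pearson's r between 9 class I and processing genes had a median of 0.765 over 36 pairs, and between 6 class II genes a median of 0.615 over 15 pairs. Across the classes it was 0.386 over 54 pairs. Not all class I members were among the 9. With Psmb8, r ran from -0.07 (H2-M11, left out) to 0.84 (H2-T23) over the 16 tested class Ib genes. The class II genes taken were Cd74, H2-Aa, H2-Ab1, H2-DMa, H2-DMb1 and H2-Eb1, while Ctss, H2-Oa and H2-Ob were left out. With those 6 genes, r ran from 0.19 to 0.87 for Ctss, from -0.08 to 0.44 for H2-Oa and from -0.44 to 0.28 for H2-Ob. These r share their arrays, groups and slides and are given as a description. The genes most like Psmb9 were Psmb8 (r = 0.93 over 20 arrays), B2m (0.92) and Trafd1 (0.91). Those most like H2-K1 were H2-Q7 (0.94 over 21 arrays) and H2-K2 (0.92), and those most like H2-Ab1 were Cd74 (0.85 over 20 arrays) and H2-DMb1 (0.84). For Tap2 they were no members: Stc2 (0.94 over 20 arrays), Shisa4 (0.93) and Wfs1 (0.93). Among the members, Tap2 had an r of 0.89 with Psmb8, 0.88 with Psmb9 and 0.84 with Psmb10, and of 0.43 with Tap1. Psmb9, H2-K1, H2-Ab1 and Tap2 were chosen for this after their values were seen.

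Single tumors stood out. LFD late replicate 4 had the lowest late value of H2-K1 (0.07), H2-D1 (-0.22), B2m (0.52), Psmb8 (0.97), Tap1 (0.09) and Tap2 (0.99). Its Ctss of 2.39 lay among the late tumors. In HFD-LFD late replicate 2, H2-T3, the thymus leukemia antigen, read 1.72, whereas the other 20 tumors with a value were at -0.83 or lower. The tumor signal of H2-T3 there was 1489 units, and in the 6 early tumors it was not well above background. The second H2-T3 probe read 0.34 in that tumor. T and NK cell markers were also highest there, at 2.09 relative to their mean over tumors, and their part in the H2-T3 value was not tested.

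Of 10 other genes of the class I route 2 fell between early and late tumors, beside 10.8% of all genes called lower. Psme2 fell by 1.15 (SE 0.17, adjusted p = 0.000244) and Psme1 by 0.92 (SE 0.19, adjusted p = 0.00294), which together form the proteasome activator PA28. The peptidase Erap1 (-0.18) and the chaperones Calr (-0.38), Canx (-0.029) and Pdia3 (0.12) were not called. The list median was -0.24, against -0.055 for all genes, and 0.18 with median centring, against 0.216. Within HFD 2 fell, Psme2 and Psmb6 (-0.43, adjusted p = 0.0198), and 2 rose, Psmb7 (1.11, adjusted p = 0.00817) and the chaperone Pdia3 (0.82, adjusted p = 0.0388). Of all genes, 13.8% were called within HFD and 7.73% were called lower there. In the class II route, of 10 tested, Cst3 (-1.49, adjusted p = 0.0205) and Ctsh (-0.69, adjusted p = 0.00961), a cathepsin inhibitor and a cathepsin, fell and Rfxap (0.40, adjusted p = 0.0244), a subunit of the X box factor RFX, rose, around a median of -0.22. Between early and late tumors, 10.8% of all genes were called lower and 7.12% higher.

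Interferon induces many of the members. Most interferon targets were lower in early tumors, and whether interferon had a part in the member differences was not tested. Of 20 interferon targets 15 fell and none rose, beside 10.8% of all genes called lower, with a median of -1.48. Oas2 fell by 1.80 (SE 0.22, adjusted p = 7.05e-05), Oas1a by 1.67 (adjusted p = 0.000797), Ifit3 by 1.61 (adjusted p = 0.000841) and Isg15 by 1.89 (adjusted p = 0.00141). The mean over interferon targets, each relative to its own mean, ran from -1.53 to -0.42 in early and from -0.90 to 1.26 in late tumors. Only LFD late replicate 4, at -0.90, and HFD-LFD late replicate 3, at -0.59, lay within the early range among late tumors. The count was between 13 and 16 with any tumor left out, 12 with median centring and 0 with slide as a fixed block (10 without adjustment), where the median was -1.58. Within HFD 5 were called lower, beside 7.73% of all genes, and within HFD-LFD 4, beside 0.937% of all genes called in either direction.

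Of 13 interferon signaling genes 5 fell, beside 10.8% of all genes called lower. The list median was -0.45, against -0.055 for all genes. Those that fell were the transcription factors Stat2 (-1.18, adjusted p = 0.000172), Irf1 (-1.05, adjusted p = 0.00138) and Irf9 (-0.44, adjusted p = 0.0136) and the receptor chains Ifnar2 (-0.80, adjusted p = 0.00152) and Ifngr1 (-0.82, adjusted p = 0.0139). With median centring 2 were called lower and 1 higher. Jak1 (-0.053) and Ifngr2 (0.22) were not called. Ifng did not pass the filter.

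Markers of the cells a tumor can hold were read in the same comparison, in which 10.8% of all genes were called lower and 7.12% higher. Of 11 T and NK cell markers 2 fell, the granzyme Gzmb (-0.89, adjusted p = 0.00327) and the T cell receptor chain Cd3d (-1.26, adjusted p = 0.0376), around a median of -0.82. Their mean level ran from -1.13 to -0.16 in early and from -0.47 to 2.09 in late tumors. Of 15 macrophage and dendritic markers Cd14 fell (-1.34, adjusted p = 0.0156) and Ccr7 rose (1.22, adjusted p = 0.0215), around a median of -0.072, and their level spanned -0.27 to 0.30 in early and -0.52 to 0.49 in late tumors. None of 6 B cell markers was called (limma, also 0 without adjustment, median -0.12). All 9 epithelial markers were tested and 4 fell, Gata3, Esr1, Foxa1 and Krt19, around a median of -1.78, with levels from -1.83 to 0.51 in early and -3.42 to 1.36 in late tumors. The lowest was HFD late replicate 4. None of 8 basal and squamous markers was called (2 without adjustment), with a median of 1.26. Of 6 fibroblast markers Dcn, a matrix proteoglycan, fell (-2.52, adjusted p = 0.00324), around a median of -0.41, with levels from -0.87 to 0.016 in early and from -1.12 to 2.53 in late tumors. Within HFD, Dcn (-3.13, adjusted p = 0.00967) and Lum (-2.64, adjusted p = 0.0168) fell, beside 7.73% of all genes called lower. No marker of endothelium (4 tested, median -0.16), adipocytes (3 tested, -0.88) or skeletal muscle (4 tested, -0.41) was called by limma between early and late tumors, though Kdr passed without adjustment (-0.52) and fell within HFD (-0.90, adjusted p = 0.0483). The part of these cells in the member differences was not tested.

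**Figure D5:**
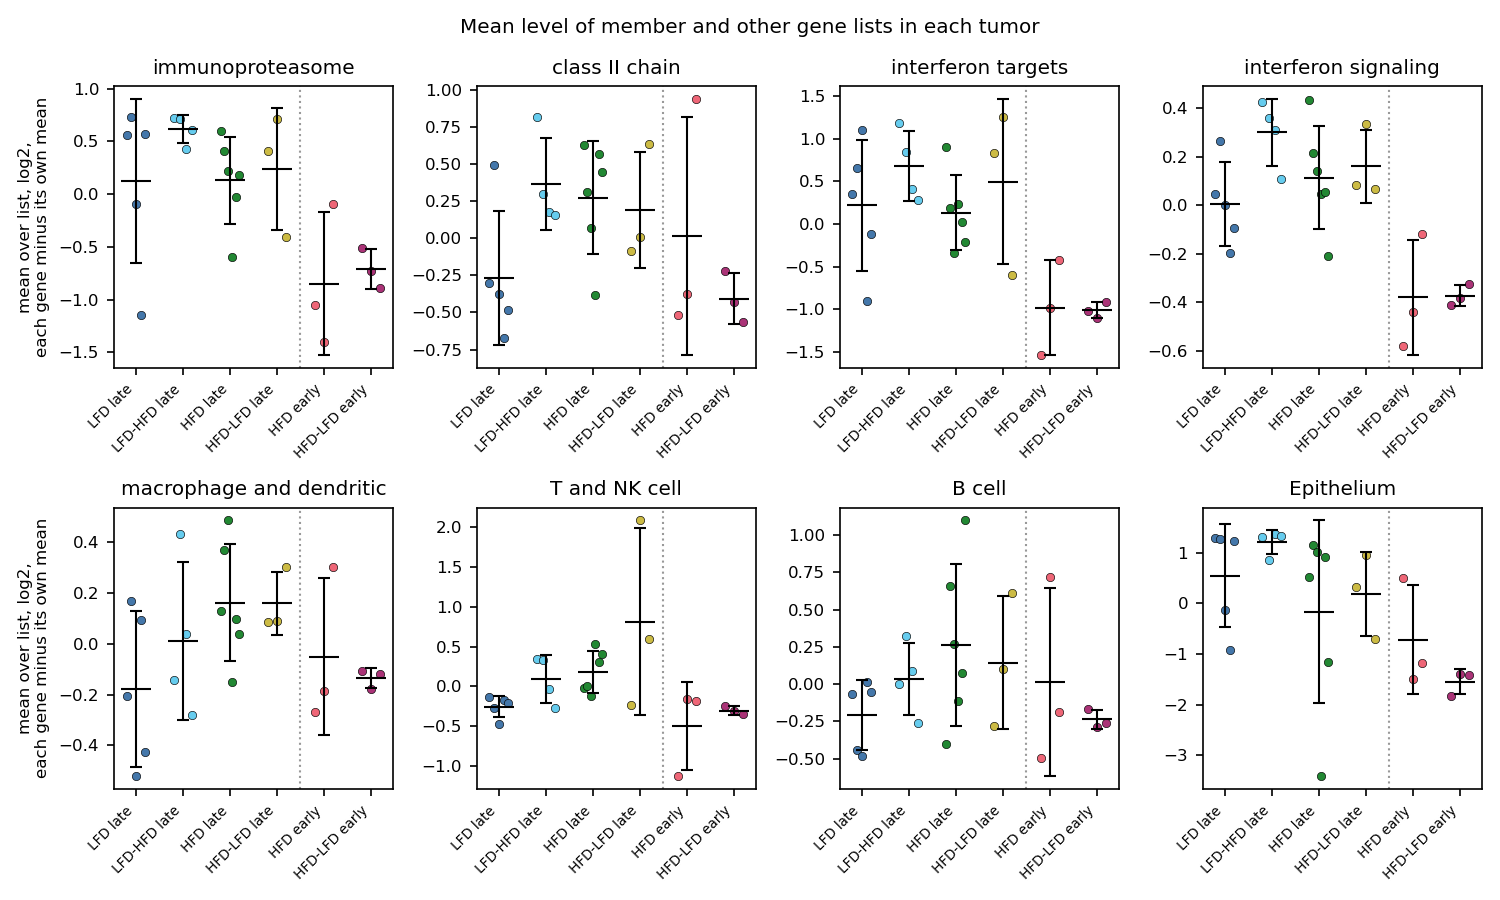
Mean level of 8 gene lists in each tumor, in log2 units with each gene taken relative to its own mean over tumors and averaged over the genes with a value, with the mean and SD of each group in black. Early tumors, right of the dotted line, are low for the immunoproteasome, interferon targets and interferon signaling, where their ranges still overlap those of late tumors. For class II chains and for macrophage and dendritic markers they overlap the late tumors more widely.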

How the data were processed

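Tumor RNA in Cy5 and reference RNA in Cy3 were measured on 24 Agilent 2-color arrays of 44397 spots on 7 slides in 3 scan sessions. The deposited files hold the authors' scanner output, not normalized: mean and background intensities of each spot, and a processed log10 ratio used only as an alternative. The submitters' processing notes name Agilent Feature Extraction 8.5.1.1, whereas the file headers name 11.0.1.1. Probe positions are those of the files (mm9). Genes were named through RefSeq accessions for 27241 probes, symbols for 3574, synonyms for 564 and the file's own name for the other 8050, while members follow the names in the files.

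Values were computed with limma 3.58.1 (R 4.3.3). The normexp correction had an offset of 50, and loess within each array gave control, flagged and dimmed spots weight 0. Spots flagged as outliers, spots whose flagged local background was over 10% of their mean, and the dimmed Cy5 rows were set missing. Probes needed a signal over 10 in both channels on 80% of measured arrays and at least 12 arrays. Spots of a probe were averaged, and a gene was read through its brightest probe on average. Early and late tumors were compared in a model of 2 classes over all 24 arrays and HFD and LFD tumors in a model of 14. The study's methods name both comparisons, but groups here follow the labels, and the sizes given in the study are not the same. Comparisons within diets used 6 group means. Calls have an adjusted p under 0.05 (lmFit, eBayes, Benjamini-Hochberg over all genes).

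The fits were tested on simulated data. The members, the other gene lists, the markers and the rule for named genes were chosen with earlier results of these data known. That rule named 25 members by role whatever their result, other members called in any comparison, the remaining members with the largest rise and fall, and up to 4 called genes of each list with the smallest p. Other names were added after their values were seen. Alternatives changed the background correction, ratio, scaling, dimmed rows, missing values, filter, probe choice, weights, variance prior, slide, scan session, channel, model and threshold, and left out each tumor. Those on flagged spots, on the spots fitted by normexp and on early tumors of a single diet were added after the data were seen. The number of arrays limits precision.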

Additional observations from a re-analysis of the deposited data

Results flagged for a closer look

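Of 65 combinations of a named gene and a group of 4 to 10 tumors, 6 (9.23%) held a tumor far from the others of its group by Dixon's ratio, where chance flags about 1 in 20. LFD late replicate 4 was such a tumor for H2-D1 at -0.22, beside 1.92 to 2.77 in the other LFD late tumors, for Tapbp at -0.286, beside 1.43 to 2.02, and for Nlrc5 at 1.76, beside 3.12 to 3.58. In LFD late replicate 3, H2-DMb1 was at 1.69, beside 2.61 to 2.79. Psmb8 was at 2.84 in LFD-HFD late replicate 3, beside 3.11 to 3.13. H2-Ke2 was at -1.36 in HFD late replicate 4, beside -0.45 to -0.29.

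Some member probes outside the tests had a tumor signal well above background on every array with a value. The H2-Ea-ps probe had a median tumor signal of 2230 units over 20 arrays. Both H2-M9 probes did too, with medians of 176 and 122 units over 24 arrays. With a filter on the tumor channel alone, H2-Ea-ps differed by 0.26 ± 0.40 (SE, limma, adjusted p = 0.683) between early and late tumors, and the H2-M9 probes by -0.10 (adjusted p = 0.698) and -0.0074 (adjusted p = 0.978).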

How the results depend on the processing

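Of 1292 values of the named genes between early and late tumors under other settings, 1164 kept their sign and side of the threshold, 55 lost a call, 46 gained a call and 27 changed sign, and where no cause is named it was not tested. With median centring, H2-D1 was at 0.017, Tap1 at 0.19, H2-Ab1 at 0.14, H2-Eb1 at 0.33 and H2-Ob at -0.059. With dimmed rows kept, H2-T23 was at 0.42, H2-Eb1 at 0.88 and H2-DMa at -0.045. H2-DMa was at -0.10 with array weights, -0.086 with slide as a random block, -0.57 with slide as a fixed block, -0.017 with 6 group means, -0.46 in scan session 2, -0.14 for HFD-LFD early tumors, and between -0.10 and 0.11 with a tumor left out. Nlrc5 was at 0.11 with slide as a fixed block, 0.12 with normexp fitted on all spots and 0.24 for HFD-LFD early tumors, where Ciita was at 0.051 and H2-Ob at -0.024. In session 1 H2-Aa was at 0.030 and H2-Eb1 at 0.12, and Tap1 was at 0.14 with normexp fitted on all spots. Members called between early and late tumors numbered 16 without adjustment, 15 with array weights, 4 with slide as a random block, 0 with slide as a fixed block, 3 in session 1, 11 in session 2, 4 for HFD-LFD early tumors and 4 to 14 with a tumor left out. Within HFD they numbered 9 without adjustment, 2 with the scanner's own log ratio, 2 with median centring, 3 with dimmed rows kept, 11 with array weights, 1 with slide as a random block, 3 with the tumor channel alone, 3 with normexp fitted on all spots and 1 to 6 with a tumor left out. Within HFD-LFD they numbered 6 without adjustment, 5 with array weights and 1 with normexp fitted on all spots. With any tumor left out but HFD-LFD late replicate 1, no member was called there. Without that tumor H2-T3 kept only 1 late HFD-LFD value, so its result is not given. The difference between the diets gave 0 with any tumor left out but that one. Late tumors across diets gave 4 without adjustment, 3 with median centring, 2 with array weights and 1 with scan session as a block. They gave 0 with any tumor left out but HFD-LFD late replicate 1. HFD against LFD gave 0 calls in all settings run. Slide as a fixed block could not be fitted for comparisons between the 6 groups. No paired analysis was possible because the labels give no replicate numbers.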
